A study of Homo sapiens with 12 samples.

Results

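Genes of the vesicle trafficking families were examined in BT-549 breast cancer cells with reduced annexin A6 (AnxA6, gene ANXA6). Members were all transcript clusters (the array's unit for 1 gene locus) whose platform gene symbol was RAB, STX, SNX, VAMP or VPS followed by a number and at most 1 letter, with the transcript cluster of highest mean kept for each gene. The rule found 81 genes among the 14884 named genes of the array, represented by 85 transcript clusters among 53617. They were 14 syntaxins, 26 sorting nexins, 7 VAMPs and 33 VPS genes, plus RAB6D. Rab genes other than RAB6D were not analysed here, nor were STX16, SNX10, SNX14, SNX15, SNX25 and VPS16. The set is therefore one of SNAREs, sorting nexins and VPS genes, and carries almost no Rab.

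The parent cells, BT-549, are a human cell line from a triple-negative breast tumour with mesenchymal character. Its 3 derivatives were BT-A6sh5, transfected with the shRNA-5 hairpin against ANXA6, BT-A6sh2, which carries the shRNA-2 hairpin, and BT-EV, the control, labelled as carrying a control shRNA and called an empty vector line in the study. All were untreated, stably transfected sub-clones of BT-549, so that a line and its hairpin cannot be told apart. Each was profiled on 4 Affymetrix Human Gene ST arrays, 12 in all, called biological replicates by the titles and technical replicates in the study, so p-values measure the spread between these arrays only.

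Membrane traffic depends on carriers that bud, are sorted, are tethered and finally fuse. Syntaxins and VAMPs are SNAREs, which pull the membranes of a carrier and its target together. Sorting nexins bind phosphoinositides on endosomes and shape or select cargo tubules, and the VPS genes, first defined by yeast mutants that missorted vacuolar proteins, encode the tethers, coats and ATPases of the endosome and lysosome route. AnxA6 is a calcium-dependent membrane-binding protein found at the plasma membrane and on endosomes.

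Values are log2 levels after robust multi-array averaging (RMA), so 1 unit is a 2-fold change. Each transcript cluster has its own probes, so levels were compared between lines, and a level beside that of another gene or beside the array's median says nothing of relative RNA amounts. ANXA6 measured 8.69 to 8.89 in BT-A6sh5, 10.32 to 10.57 in BT-A6sh2 and 11.37 to 11.43 in BT-EV, with no overlap between the lines (log2 fold change -2.63 and -0.96 against BT-EV, adjusted p = 2.2e-09 and 1.6e-04). VIM, FN1 and AXL, genes of mesenchymal cells, lay above 10 in all 12 arrays. CD44 and ZEB1, also genes of such cells, lay at 9.46 to 9.96 and 7.15 to 7.69. FN1 fell by 0.43 in BT-A6sh2 (adjusted p = 7.6e-03). AXL fell by 0.30 in BT-A6sh5 and rose by 0.37 in BT-A6sh2 (adjusted p = 0.036 and 0.020). The epithelial genes EPCAM and ESRP1 lay at 3.32 to 3.94 and 3.63 to 4.21. Other epithelial genes lay higher, KRT18 at 6.25 to 7.29, KRT8 at 5.50 to 6.38, CLDN4 at 5.15 to 6.20 and KRT19 at 4.60 to 5.73, and of these KRT18 fell by 0.53 in BT-A6sh2 (adjusted p = 0.048). SPARC, CDH1, ERBB2 and PTPRC were not analysed here. The BT-A6sh2 arrays differed more among themselves than the others: the SD of the members around their line mean was 0.138 in BT-A6sh5, 0.216 in BT-A6sh2 and 0.0903 in BT-EV, and replicates 1 and 3 of BT-A6sh2 had the lowest SD over all transcript clusters (2.18 and 2.19). The description of BT-A6sh2 replicate 1 names shRNA-5 while its title and other labels name shRNA-2. It was kept in BT-A6sh2, where its ANXA6 level of 10.57 lay. The 36 hybridization control probe sets averaged 8.50 to 8.92 in BT-A6sh5, 8.66 to 9.05 in BT-A6sh2 and 8.10 to 8.29 in BT-EV. Since this level did not overlap between either knockdown line and BT-EV, it and the knockdown cannot be told apart in the comparisons with BT-EV.

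A call is an adjusted p under 0.05 in a limma fit of all 12 arrays, adjusted over all 53617 transcript clusters. In BT-A6sh5 against BT-EV, 11 members were higher and 18 lower, and 52 were not called. That is 13.6% higher and 22.2% lower among the members, against 4.11% and 6.71% of all transcript clusters and 8.12% and 17.2% of the 10676 named genes above the median level. No member passed 2-fold in this comparison, as 1.93% of all transcript clusters did. The median log2 fold change of the members was -0.02, against 0.05 over all transcript clusters. In BT-A6sh2 against BT-EV, 5 members were higher, 6 lower and 70 not called, or 6.17% and 7.41%. One of the 5, RAB6D, had a level not shown to be above background. Among all transcript clusters 5.35% and 3.13% were, and among the named genes above the median 5.49% and 6.26%. Only VAMP4 passed 2-fold, against 1.41% of all transcript clusters. The members' median was -0.06, against 0.05 over all transcript clusters. Set against the named genes above the median, which were not matched to the members in level, the BT-A6sh2 shares lay near the background.

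Of the 29 members called in BT-A6sh5, 21 stayed called when any 1 of the 12 arrays was left out. All 29 stayed called without BT-A6sh2 replicates 1 and 3. Those arrays enter this comparison only through the spread that the lines share, and its fold changes do not depend on them. Their omission is therefore no check of these calls. The BT-A6sh2 counts were less stable. Leaving out BT-EV replicate 1, 2, 3 or 4 left 1, 1, 2 or 1 higher members and 3, 2, 2 or 2 lower ones, and leaving out BT-A6sh2 replicate 3 left 3 of each. Calls for STX3 and SNX7 alone held under all single omissions there. With the hybridization control level as a covariate, 1 member was higher (VPS13B) and 1 lower (STX3) in BT-A6sh5, and none was called in BT-A6sh2. All 29 and all 11 kept their sign in that fit, their median size was 0.38 in BT-A6sh5 and 0.32 in BT-A6sh2, against 0.51 and 0.49 without the covariate, and their median standard error was 0.18 and 0.22, against 0.10 and 0.09. VAMP2 and SNX30 had 0.72 and 0.54 for BT-A6sh5 there, about as without it, while SNX4 had -0.18. The difference of BT-A6sh5 and BT-A6sh2, whose control levels overlapped, kept 26 of its 30 calls in that fit.

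**Figure D1:**
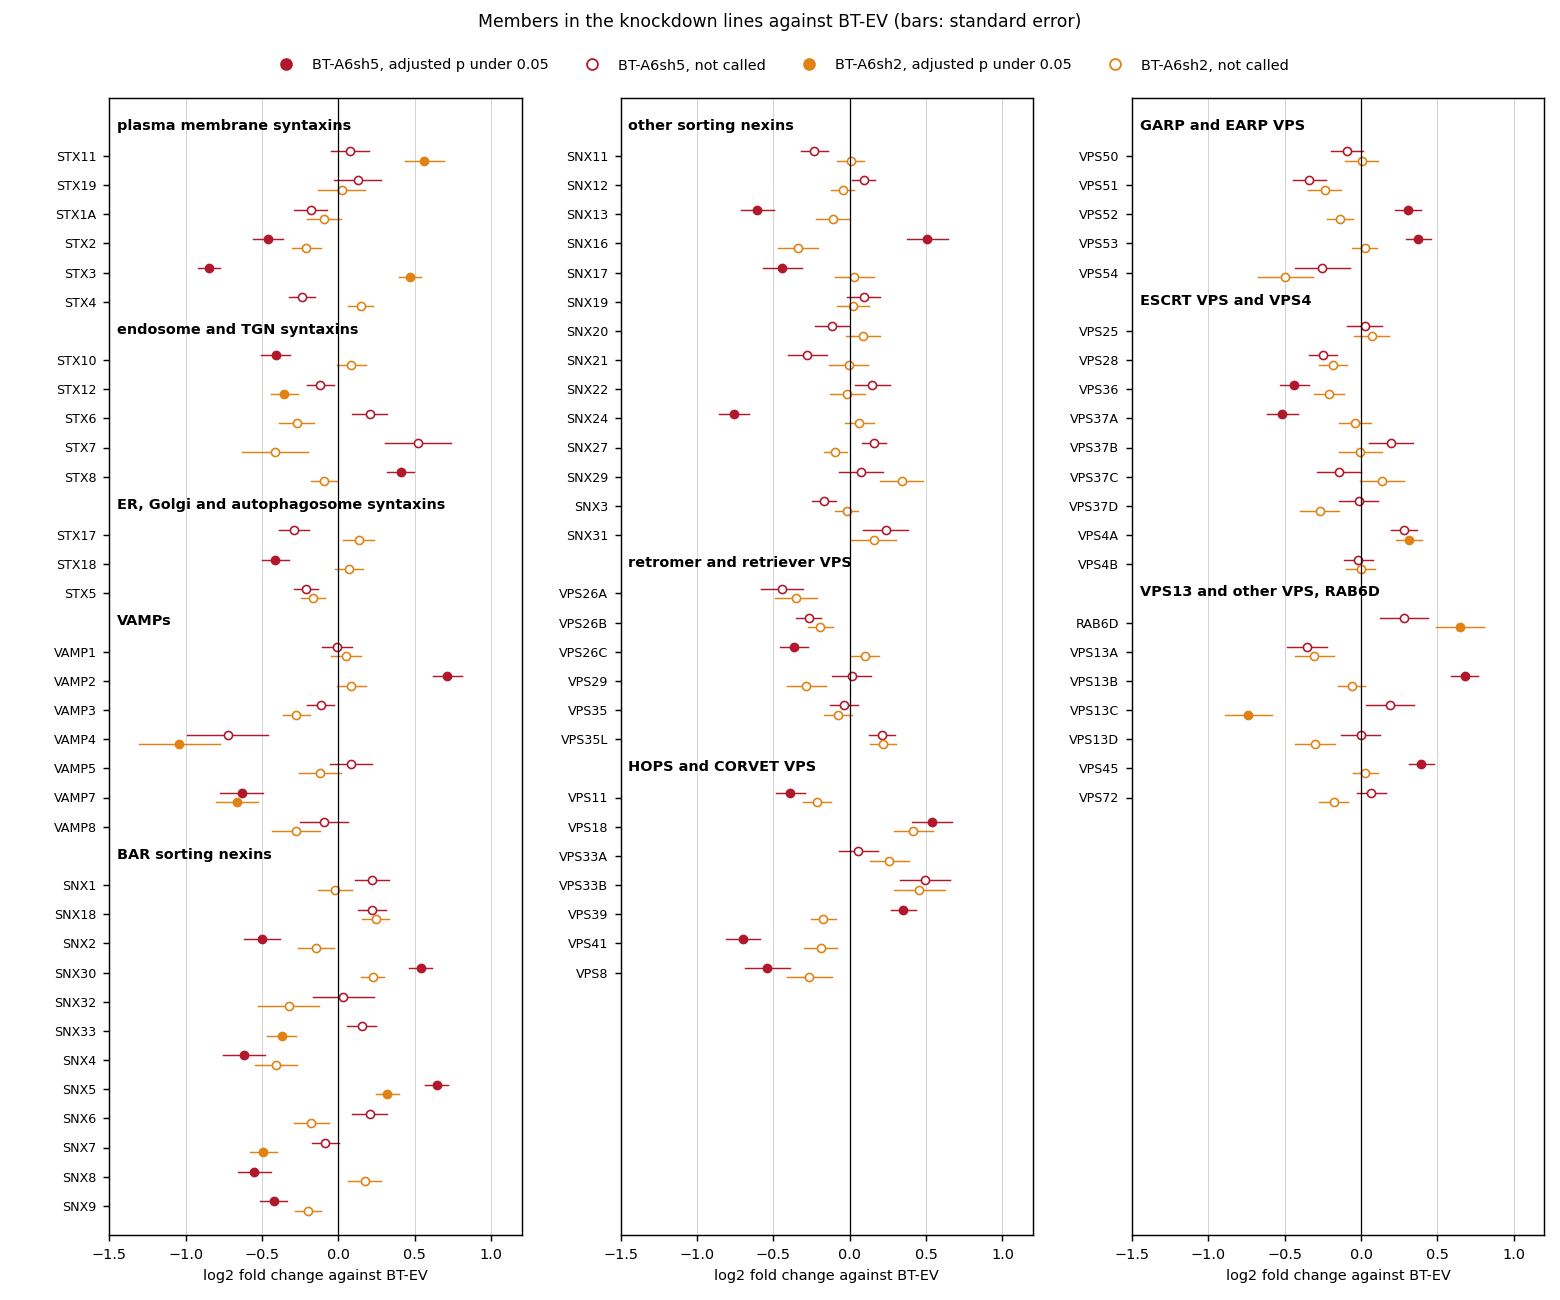
Log2 fold change of each of the 81 members (rows, grouped by role) in BT-A6sh5 (red) and BT-A6sh2 (orange) against BT-EV, with bars of 1 standard error and filled circles at adjusted p under 0.05. STX3 lies at -0.85 in BT-A6sh5 and at 0.47 in BT-A6sh2, while SNX5 lies above 0 and VAMP7 below 0 in both lines.

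Only 3 members were called in both knockdown lines: STX3 in opposite directions, SNX5 higher in both and VAMP7 lower in both. Both comparisons use the same BT-EV arrays, and the spread is pooled over lines in which it differed. With BT-A6sh2 and BT-EV fitted alone, 3 of the 11 BT-A6sh2 calls held. STX3 stayed called there (adjusted p = 0.030), but SNX5 and VAMP7 did not (adjusted p = 0.081 and 0.066). Another 10 were higher and 16 lower in BT-A6sh5 alone, 3 were higher and 5 lower in BT-A6sh2 alone, and 44 were called in neither. A call in 1 line alone does not show that the lines differ, which was tested separately below.

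STX3, a plasma membrane syntaxin that serves apical delivery in epithelia and granule release in other cells, measured 7.86, 7.91, 7.92 and 7.90 in BT-A6sh5. It measured 9.21, 9.14, 9.21 and 9.30 in BT-A6sh2, and 8.71, 8.76, 8.78 and 8.74 in BT-EV. The 3 lines did not overlap: all BT-A6sh5 arrays lay below all BT-EV arrays, and all BT-A6sh2 arrays above them. STX3 fell by 0.85 ± 0.07 (SE) in BT-A6sh5 (adjusted p = 1.2e-05), whereas BT-A6sh2 showed a rise of 0.47 ± 0.07 (adjusted p = 4.8e-03). SNX5, a BAR sorting nexin of the endosomal coat that returns receptors to the Golgi, measured 9.59, 9.57, 9.61 and 9.66 in BT-A6sh5. It measured 9.20, 9.35, 9.30 and 9.29 in BT-A6sh2 and 8.92, 8.90, 9.02 and 9.01 in BT-EV. Its 3 lines did not overlap either, with BT-A6sh5 the highest. The rise was 0.64 ± 0.08 for BT-A6sh5 (adjusted p = 1.5e-04) but 0.32 ± 0.08 for BT-A6sh2 (adjusted p = 0.028), the second lost when BT-EV replicate 2 was left out (adjusted p = 0.090).

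VAMP7, the longin-type v-SNARE of late endosomes and lysosomes that serves lysosome exocytosis, measured 10.98, 11.00, 10.88 and 10.94 in BT-A6sh5. It measured 10.70, 11.23, 10.59 and 11.16 in BT-A6sh2 and 11.51, 11.72, 11.53 and 11.57 in BT-EV. All knockdown arrays lay below all BT-EV arrays, and BT-A6sh2 replicates 1 and 3 were the lowest. VAMP7 fell by 0.63 ± 0.14 for BT-A6sh5 (adjusted p = 0.010), and BT-A6sh2 showed a similar fall of 0.66 ± 0.14 (adjusted p = 0.017). Without BT-A6sh2 replicates 1 and 3, the BT-A6sh2 value was -0.39 (adjusted p = 0.043). A second transcript cluster of VAMP7, a gene of the pseudoautosomal region with an X and a Y copy, gave -0.61 and -0.56 (adjusted p = 6.7e-03 and 0.021). Under omission of BT-EV replicate 2 the BT-A6sh2 call was lost (adjusted p = 0.061).

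The promoters of these 3 genes are given because they alone were called in both lines. They are 300-base windows from RefSeq (GRCh38.p14), written 5′ to 3′ on the gene's strand, from 250 bases before to 50 after the annotated start. Capitals mark, on either strand, the GC box GGGCGG in STX3, the cyclic AMP response element TGACGTCA in SNX5 and CCAAT in VAMP7.
STX3, chr11:59755126-59755425, plus strand: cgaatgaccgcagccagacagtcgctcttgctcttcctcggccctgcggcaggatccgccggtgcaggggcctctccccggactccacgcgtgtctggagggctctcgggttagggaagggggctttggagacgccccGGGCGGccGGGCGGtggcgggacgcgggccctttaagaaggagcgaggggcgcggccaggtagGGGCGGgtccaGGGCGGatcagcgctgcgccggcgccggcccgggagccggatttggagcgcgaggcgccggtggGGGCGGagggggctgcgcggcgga
SNX5, chr20:17968745-17969044, minus strand: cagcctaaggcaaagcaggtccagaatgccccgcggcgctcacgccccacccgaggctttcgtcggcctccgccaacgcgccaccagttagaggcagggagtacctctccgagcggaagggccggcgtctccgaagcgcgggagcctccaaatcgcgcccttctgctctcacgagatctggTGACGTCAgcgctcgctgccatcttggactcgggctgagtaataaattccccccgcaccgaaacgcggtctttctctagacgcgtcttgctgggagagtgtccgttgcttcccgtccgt
VAMP7, chrX:155881095-155881394, plus strand: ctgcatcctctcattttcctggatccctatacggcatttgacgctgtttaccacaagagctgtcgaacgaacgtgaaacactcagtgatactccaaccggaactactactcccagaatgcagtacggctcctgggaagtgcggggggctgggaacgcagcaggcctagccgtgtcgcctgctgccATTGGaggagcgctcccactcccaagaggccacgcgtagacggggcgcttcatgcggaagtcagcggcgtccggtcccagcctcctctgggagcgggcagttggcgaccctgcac
STX3 holds 5 copies of the GC box, which 48.4% of the 27195 genes in the promoter table carry. The element in SNX5 was found in 2.25% of genes and CCAAT in 39.7%. The motifs were picked after the expression values were known, and a match shows letters only.

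**Figure D2:**
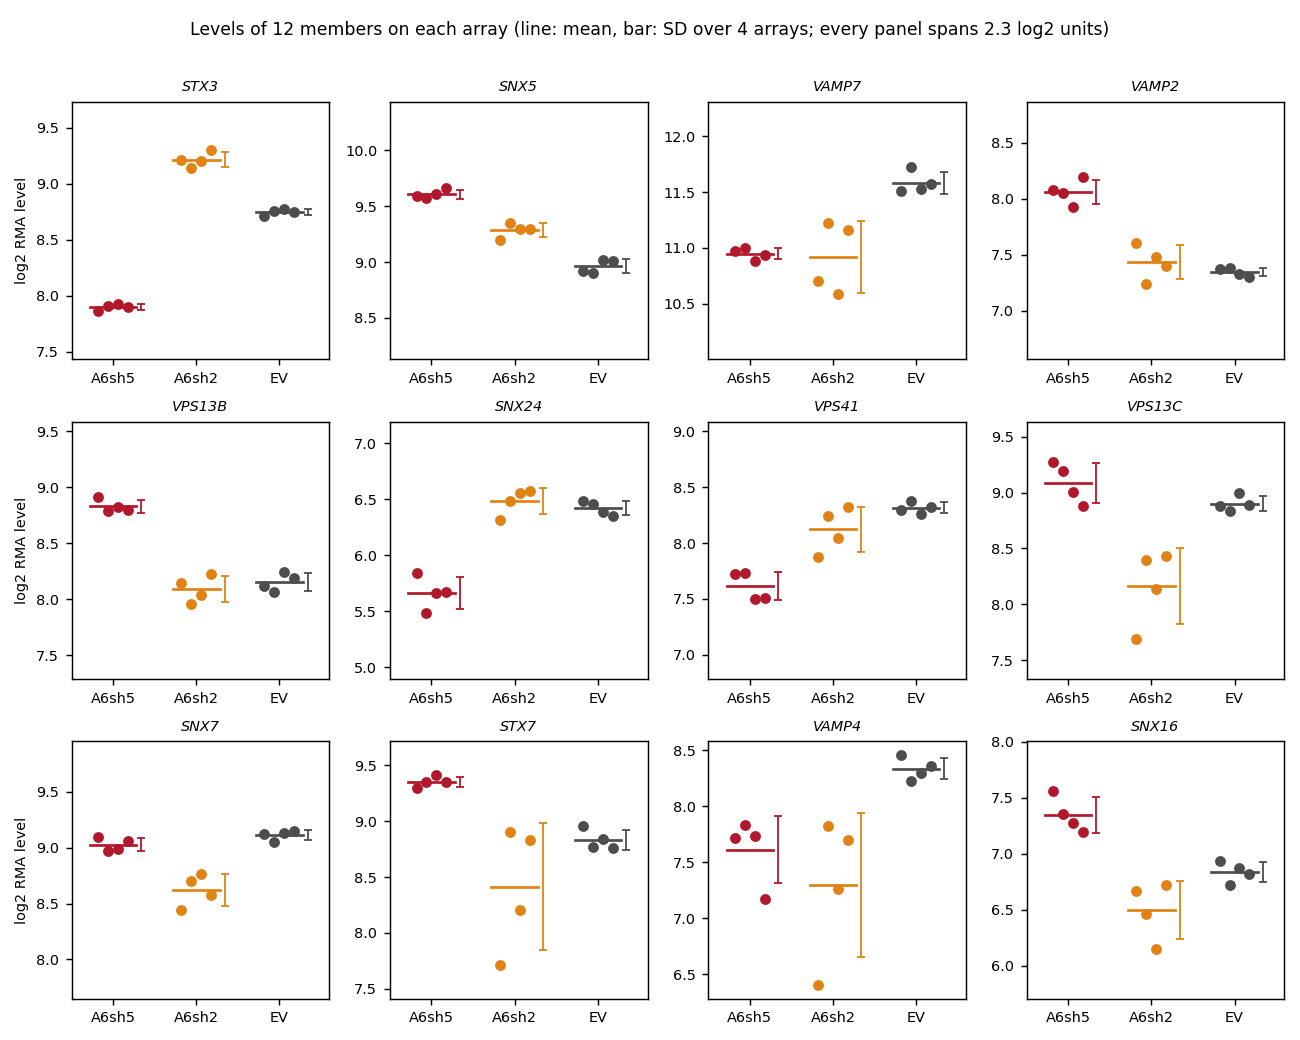
Log2 RMA level (vertical axis) of 12 members on each array, with BT-A6sh5, BT-A6sh2 and BT-EV from left to right. Each point is 1 array, the line is the mean of 4 and the bar its SD. STX3 separates into 3 levels with BT-A6sh2 highest, while VAMP4, VAMP7, VPS13C and STX7 spread widely over the BT-A6sh2 arrays.

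The counts by role are set against the named genes above the median, of which 8.12% were higher and 17.2% lower in BT-A6sh5, and 5.49% and 6.26% in BT-A6sh2. No role holds over 14 genes, so that 1 call moves a share by 7.14 percentage points or more, and no role was tested against other genes. Of the 6 measured plasma membrane syntaxins, 2 were lower in BT-A6sh5 (STX3 and STX2) and 2 higher in BT-A6sh2 (STX3 and STX11). STX2 measured 9.47, 9.37, 9.49 and 9.43 in BT-A6sh5 and 9.87, 9.86, 9.97 and 9.90 in BT-EV, with no overlap, a fall of 0.46 ± 0.10 (adjusted p = 8.1e-03). Its BT-A6sh2 value was -0.21 (adjusted p = 0.18). STX11, best known from granule release by cytotoxic lymphocytes, measured 6.94, 6.99, 6.89 and 6.96 in BT-A6sh2 and 6.26, 6.50, 6.57 and 6.20 in BT-EV. Every BT-A6sh2 array lay above every BT-EV array, a rise of 0.56 ± 0.13 (adjusted p = 0.023). That call was lost without BT-EV replicate 1 (adjusted p = 0.071). STX4, the syntaxin of GLUT4 delivery in fat and muscle, was not called, with -0.24 for BT-A6sh5 and 0.15 for BT-A6sh2 (adjusted p = 0.11 and 0.28).

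Among the 5 syntaxins of endosomes and the trans-Golgi network, STX8 was higher and STX10 lower in BT-A6sh5, and STX12 was lower in BT-A6sh2. STX8, a partner of STX7 in late endosome fusion, measured 9.05, 9.06, 9.17 and 9.03 in BT-A6sh5 and 8.68, 8.70, 8.66 and 8.66 in BT-EV. The arrays did not overlap, and STX8 rose by 0.41 ± 0.09 (adjusted p = 9.1e-03). STX10, a SNARE of the trans-Golgi network, fell by 0.41 ± 0.09 (adjusted p = 0.014). STX12, the recycling endosome syntaxin, fell by 0.35 ± 0.09 in BT-A6sh2 (adjusted p = 0.035). The STX12 call was lost under 8 of the 12 single omissions (adjusted p up to 0.10). STX6 had values of 0.20 and -0.27 in BT-A6sh5 and BT-A6sh2 (adjusted p = 0.36 and 0.15). Of the 3 syntaxins of the ER, Golgi and autophagosomes, STX18, which serves Golgi-to-ER return, fell by 0.41 ± 0.09 in BT-A6sh5 (adjusted p = 0.011). STX5, the ER-to-Golgi syntaxin, had values of -0.21 and -0.17 (adjusted p = 0.13 and 0.20).

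Among the 7 VAMPs, VAMP2 was higher and VAMP7 lower in BT-A6sh5, and VAMP4 and VAMP7 were lower in BT-A6sh2. VAMP2, the synaptobrevin of regulated exocytosis, measured 8.07, 8.05, 7.93 and 8.19 in BT-A6sh5, and 7.61, 7.24, 7.48 and 7.40 in BT-A6sh2. In BT-EV it measured 7.37, 7.38, 7.33 and 7.30. All BT-A6sh5 arrays lay above the other 8, and VAMP2 rose by 0.71 ± 0.10 (adjusted p = 4.0e-04), whereas its BT-A6sh2 value was 0.09 (adjusted p = 0.59). VAMP4, of the trans-Golgi network, measured 7.71, 7.83, 7.73 and 7.17 in BT-A6sh5 and 6.40, 7.82, 7.26 and 7.70 in BT-A6sh2. It measured 8.46, 8.23, 8.30 and 8.36 in BT-EV. No knockdown array reached the BT-EV range, but their spread was wide. The log2 fold change was -0.72 ± 0.27 for BT-A6sh5 (adjusted p = 0.12), against a called -1.04 ± 0.27 for BT-A6sh2 (adjusted p = 0.036). Without BT-A6sh2 replicates 1 and 3 the BT-A6sh2 value was -0.57 (adjusted p = 0.088). VAMP3, the recycling endosome VAMP, had values of -0.12 and -0.27 (adjusted p = 0.57 and 0.080), and VAMP8 of -0.09 and -0.28 (adjusted p = 0.83 and 0.27).

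Of the 12 sorting nexins with a membrane-bending BAR domain, 2 were higher and 4 lower in BT-A6sh5 (16.7% and 33.3%), and 1 was higher and 2 lower in BT-A6sh2 (8.33% and 16.7%). Besides SNX5, SNX30 rose in BT-A6sh5, where it measured 8.83, 8.86, 8.82 and 8.82, against 8.31, 8.24, 8.27 and 8.35 in BT-EV. The arrays did not overlap, and the change was 0.54 ± 0.08 (adjusted p = 5.2e-04). SNX4, with which SNX7 and SNX30 form dimers in endosomal recycling, measured 8.72, 8.66, 8.41 and 8.51 in BT-A6sh5 and 9.25, 9.15, 9.18 and 9.20 in BT-EV. It fell by 0.62 ± 0.14 (adjusted p = 0.012), and all 4 BT-A6sh5 arrays lay below those of BT-EV. SNX8 fell by 0.55 ± 0.11 (adjusted p = 5.1e-03), SNX2, a partner of SNX5 in the same coat, by 0.50 ± 0.12 (adjusted p = 0.017), and SNX9, which acts in endocytosis with dynamin, by 0.42 ± 0.09 (adjusted p = 6.4e-03). The SNX2 call was lost under 4 of the 12 single omissions (adjusted p up to 0.056). SNX7 measured 8.44, 8.70, 8.76 and 8.58 in BT-A6sh2 and 9.12, 9.05, 9.13 and 9.15 in BT-EV. It fell by 0.49 ± 0.09 in BT-A6sh2 (adjusted p = 8.9e-03) without overlap, and its BT-A6sh5 value was -0.09 (adjusted p = 0.69). SNX33, of the SNX9 family, fell by 0.37 ± 0.09 in BT-A6sh2 (adjusted p = 0.036). The SNX33 call was lost under 5 of the 12 single omissions (adjusted p up to 0.098). SNX1 had values of 0.22 and -0.02 (adjusted p = 0.30 and 0.91).

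The other 14 measured sorting nexins had 1 call higher and 3 lower in BT-A6sh5 and none in BT-A6sh2, where their median log2 fold change was 0.00. SNX24 measured 5.84, 5.49, 5.66 and 5.67 in BT-A6sh5, 6.32, 6.49, 6.56 and 6.58 in BT-A6sh2 and 6.49, 6.46, 6.39 and 6.35 in BT-EV. Only the BT-A6sh5 arrays stood apart, lower by 0.76 ± 0.10 (adjusted p = 2.9e-04). SNX13, which has an RGS domain, fell by 0.60 ± 0.11 (adjusted p = 3.5e-03). SNX17, an adaptor that recycles integrins and LDL receptor family members, fell by 0.44 ± 0.13 (adjusted p = 0.046), a call lost without BT-EV replicate 2 (adjusted p = 0.13). SNX16 rose by 0.51 ± 0.13 (adjusted p = 0.027), lost without the same array (adjusted p = 0.088). SNX3, the retromer-linked sorting nexin, had values of -0.17 and -0.02 (adjusted p = 0.24 and 0.89).

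Of the 5 genes listed under retromer, the coat that retrieves cargo from endosomes, 1 was called, lower in BT-A6sh5. VPS35, its scaffold, measured 11.02, 10.94, 10.78 and 10.78 in BT-A6sh5, 10.74, 10.93, 10.74 and 10.97 in BT-A6sh2 and 10.96, 10.87, 10.92 and 10.92 in BT-EV. The 3 lines overlapped, with values of -0.04 and -0.07 (adjusted p = 0.89 and 0.63). VPS26A and VPS26B had -0.44 and -0.27 for BT-A6sh5 (adjusted p = 0.060 and 0.059), and VPS29 had 0.01. VPS26C, a subunit of retriever, the related complex that works with SNX17, fell by 0.36 ± 0.09 in BT-A6sh5 (adjusted p = 0.022), lost without BT-EV replicate 4 (adjusted p = 0.077). VPS35L, another retriever subunit, had 0.21 and 0.22 (adjusted p = 0.17 and 0.12).

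Among the 7 measured subunits or partners of HOPS and CORVET, the tethers of late and early endosomes, 2 were higher and 3 lower in BT-A6sh5 (28.6% and 42.9%) and none was called in BT-A6sh2. VPS41, a subunit particular to HOPS, measured 7.72, 7.73, 7.50 and 7.51 in BT-A6sh5, 7.88, 8.25, 8.04 and 8.33 in BT-A6sh2 and 8.30, 8.38, 8.26 and 8.32 in BT-EV. BT-A6sh5 did not overlap with BT-EV, and VPS41 fell by 0.70 ± 0.11 (adjusted p = 1.3e-03). The other subunit particular to HOPS, VPS39, moved the other way: it measured 10.74, 10.64, 10.59 and 10.51 in BT-A6sh5 and 10.22, 10.32, 10.23 and 10.29 in BT-EV. It rose by 0.35 ± 0.08 (adjusted p = 0.013), without overlap. VPS8, particular to CORVET, fell by 0.54 ± 0.15 (adjusted p = 0.035), lost without BT-A6sh5 replicate 3 (adjusted p = 0.11). Of the shared core, VPS11 fell by 0.39 ± 0.09 (adjusted p = 0.017) and VPS18 rose by 0.54 ± 0.13 (adjusted p = 0.018), and each call was lost under some single omission, at adjusted p = 0.058 for both. VPS33A had 0.06 (adjusted p = 0.89).

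GARP and EARP are tethers that receive carriers at the trans-Golgi network and at recycling endosomes. Of their 5 measured genes, VPS53 and VPS52 were higher in BT-A6sh5, and 3 lay below 0 without a call. These were VPS51, VPS54 and VPS50, at -0.34, -0.26 and -0.09 (adjusted p = 0.072, 0.51 and 0.72). VPS53 measured 10.79, 10.79, 10.66 and 10.72 in BT-A6sh5 and 10.26, 10.38, 10.42 and 10.40 in BT-EV, a rise of 0.37 ± 0.08 (adjusted p = 0.010) with no overlap. VPS52 rose by 0.31 ± 0.08 (adjusted p = 0.035), lost under 7 of the 12 single omissions (adjusted p up to 0.11). Its second transcript cluster, at 0.09, was not called. Among the 9 ESCRT and VPS4 genes, which sort ubiquitinated cargo into multivesicular bodies, VPS37A (ESCRT-I) fell by 0.52 ± 0.10 and VPS36 (ESCRT-II) by 0.44 ± 0.10 for BT-A6sh5 (adjusted p = 6.2e-03 and 0.011). VPS4A, an ATPase that disassembles ESCRT-III, rose by 0.31 ± 0.09 in BT-A6sh2 (adjusted p = 0.046), and had 0.28 in BT-A6sh5 (adjusted p = 0.060). The BT-A6sh2 call was lost under 10 of the 12 single omissions. VPS25 had 0.02 and 0.07 (adjusted p = 0.95 and 0.73).

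VPS13 proteins are bridges that carry lipids between organelles. VPS13B, of the Golgi, measured 8.92, 8.79, 8.82 and 8.79 in BT-A6sh5 and 8.14, 7.96, 8.04 and 8.22 in BT-A6sh2. In BT-EV it measured 8.12, 8.06, 8.24 and 8.19. Only BT-A6sh5 stood apart, higher by 0.68 ± 0.09 (adjusted p = 2.8e-04). VPS13C, at contacts of the ER with late endosomes, measured 9.28, 9.19, 9.00 and 8.88 in BT-A6sh5, 7.69, 8.39, 8.13 and 8.43 in BT-A6sh2 and 8.88, 8.84, 9.00 and 8.89 in BT-EV. Here only BT-A6sh2 stood apart, lower by 0.74 ± 0.16 (adjusted p = 0.018), and lower by 0.49 without replicates 1 and 3 (adjusted p = 0.048). The call was lost without BT-EV replicate 3 (adjusted p = 0.058). VPS45, which assists endosomal SNARE assembly, rose by 0.39 ± 0.08 in BT-A6sh5 (adjusted p = 7.2e-03). RAB6D, a near copy of other RAB6 genes whose probes may not tell them apart, measured 2.23 to 2.53 in BT-A6sh5, 2.45 to 3.25 in BT-A6sh2 and 2.02 to 2.32 in BT-EV, below the array's median of 4.96. It was called higher in BT-A6sh2 (adjusted p = 0.030), lost without BT-EV replicate 2 (adjusted p = 0.087), but background is unknown here and no size is read from it. SNX20, SNX31, SNX32 and STX19 also averaged below that median.

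Members were next set beside the genes around them. For each member, the median log2 fold change of the 40 nearest named genes on its chromosome (members excluded, level above the median) was set beside its own, with gene order from RefSeq. In BT-A6sh5 against BT-EV, that median ran from -0.56 to 0.30, against -0.04 over all 10600 genes in the pool. It lay above 0 for all 11 members called higher and below 0 for all 18 called lower. Some of these medians were close to 0: for SNX30 0.0007, with 20 nearest genes above 0 and 20 below, and for VPS52 0.01. Of the 29 called members, 12 had a neighbour median beyond 0.2 in size, as did 22 of all 81. Of the 52 members not called, 26 had neighbours above 0 and 26 below, counted whatever the sign of the member's own value. Over the 81 members, Pearson's r was 0.59 and Spearman's rho 0.61, a description only, since all points share the same arrays and nearby members share neighbours. In BT-A6sh2 the neighbour medians ran from -0.24 to 0.17, and r was 0.34 and rho 0.34. There, 2 of 5 members called higher had neighbours above 0, and 6 of 6 called lower had neighbours below 0. So did 47 of the 70 not called, whatever their own sign. How much of any member's change belongs to its surroundings was not tested. Copy number in the 3 sub-clones was not analysed here, and its part in these values was not tested.

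**Figure D3:**
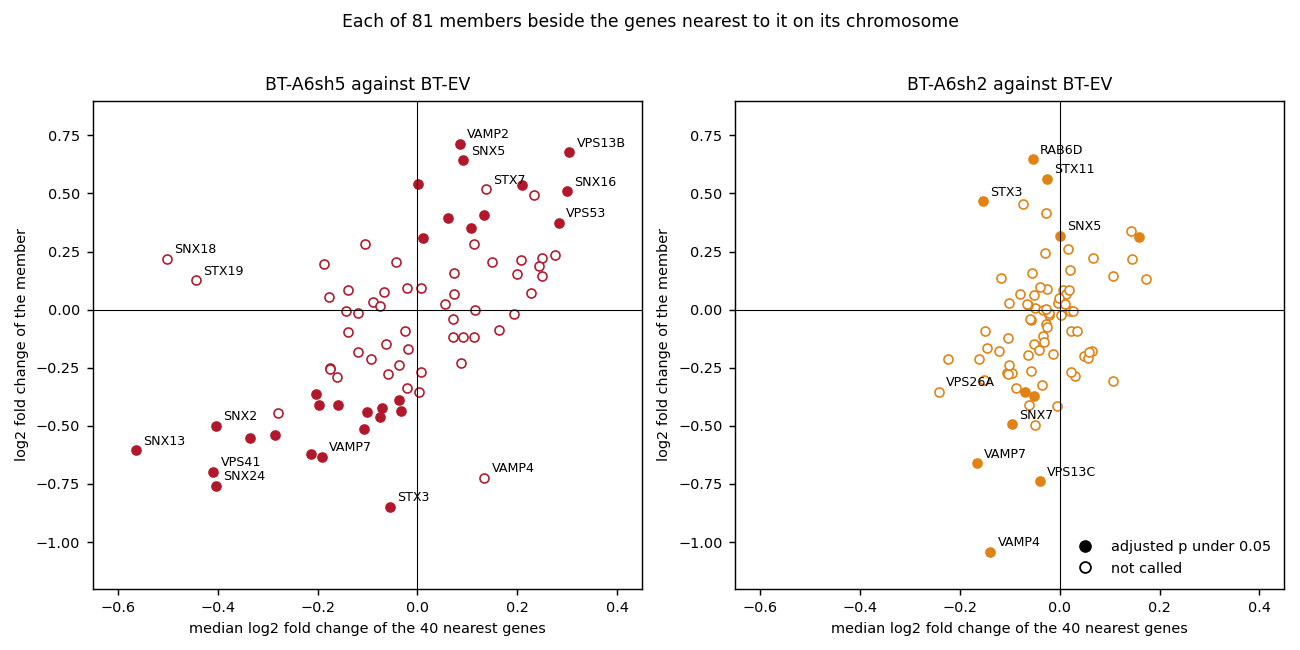
Log2 fold change of each of 81 members (vertical axis) against the median of its 40 nearest genes (horizontal axis), in BT-A6sh5 (left) and BT-A6sh2 (right) against BT-EV, with filled circles at adjusted p under 0.05. In BT-A6sh5 all 29 filled circles lie at the lower left or upper right, on the same side of 0 on both axes. Some of them lie close to 0 on the horizontal axis, and STX3 and VAMP4 lie far from their neighbours.

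On chromosome 7, SNX13 (-0.60), VPS41 (-0.70) and SNX8 (-0.55) were lower in BT-A6sh5, and 33, 35 and 36 of their 40 nearest genes were below 0, with medians of -0.56, -0.41 and -0.34. In BT-A6sh2 the same neighbours had medians of -0.03, -0.01 and 0.02. SNX2 and SNX24 follow each other on chromosome 5, where the median of 462 genes was -0.39 in BT-A6sh5 and 0.01 in BT-A6sh2. SNX4 and VPS8 lie on chromosome 3, with a median of -0.34 in BT-A6sh5 and -0.03 in BT-A6sh2 over 545 genes. All 7 members on chromosome 15 lay above 0 in BT-A6sh5 (0.15 to 0.54, VPS18 and VPS39 called), where its 337 genes had a median of 0.17, against -0.06 in BT-A6sh2. VPS13B and SNX16 on chromosome 8 had neighbour medians of 0.30 each, and VPS53 on chromosome 17 one of 0.28. Other members lay apart from their surroundings. SNX18 on chromosome 5 and STX19 on chromosome 3 had neighbours at -0.50 and -0.44 but values of 0.22 and 0.13 in BT-A6sh5, neither called. STX3 stood at -0.85 and 0.47 where its neighbours stood at -0.06 in BT-A6sh5 and -0.15 in BT-A6sh2. SNX5, VAMP2, VAMP4 and SNX30 had BT-A6sh5 neighbours at 0.09, 0.08, 0.13 and 0.0007. VAMP7 had neighbours at -0.19 in BT-A6sh5 and -0.17 in BT-A6sh2.

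Whether the knockdown lines differed was tested directly. In BT-A6sh5 against BT-A6sh2, 17 members were higher, 13 lower and 51 not called, or 21.0% and 16.0%, against 8.16% and 11.4% of all transcript clusters and 14.2% and 22.3% of named genes above the median. STX3 was the only member past 2-fold, as were 3.31% of all transcript clusters. Relative to the named genes the members had more calls higher and fewer lower. With arrays centred on their medians the split was 14 higher and 17 lower, and with repeated quantile normalization 21 higher and 13 lower. Of the 30 calls, 26 held under any single omission. With these 2 lines fitted alone, 9 were higher and 8 lower.

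STX3 had the largest difference among the members, -1.32 ± 0.07 (95% interval -1.47 to -1.16, adjusted p = 2.5e-07). Among the members lower in BT-A6sh5, SNX24 followed at -0.82 (adjusted p = 1.3e-04) and SNX8 at -0.72 (adjusted p = 6.5e-04). STX7, the late endosome syntaxin, measured 9.30, 9.35, 9.41 and 9.35 in BT-A6sh5, 7.72, 8.91, 8.20 and 8.84 in BT-A6sh2 and 8.95, 8.77, 8.84 and 8.76 in BT-EV. It was called in neither line against BT-EV, at 0.52 and -0.42, but differed between the knockdown lines by 0.93 ± 0.22 (adjusted p = 0.010), and by 0.48 without BT-A6sh2 replicates 1 and 3 (adjusted p = 5.1e-03). VPS13C differed by 0.93 (adjusted p = 1.5e-03) and by 0.68 without those arrays (adjusted p = 3.6e-03). SNX16 measured 7.56, 7.35, 7.28 and 7.19 in BT-A6sh5 and 6.66, 6.46, 6.15 and 6.72 in BT-A6sh2, a difference of 0.85 (adjusted p = 9.1e-04) with no overlap. VPS13B differed by 0.74 and VAMP2 by 0.63 (adjusted p = 1.2e-04 and 7.9e-04). VAMP7 and VAMP4 gave no call, with differences of 0.03 (95% interval -0.27 to 0.33) and 0.32 (-0.26 to 0.90).

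**Figure D4:**
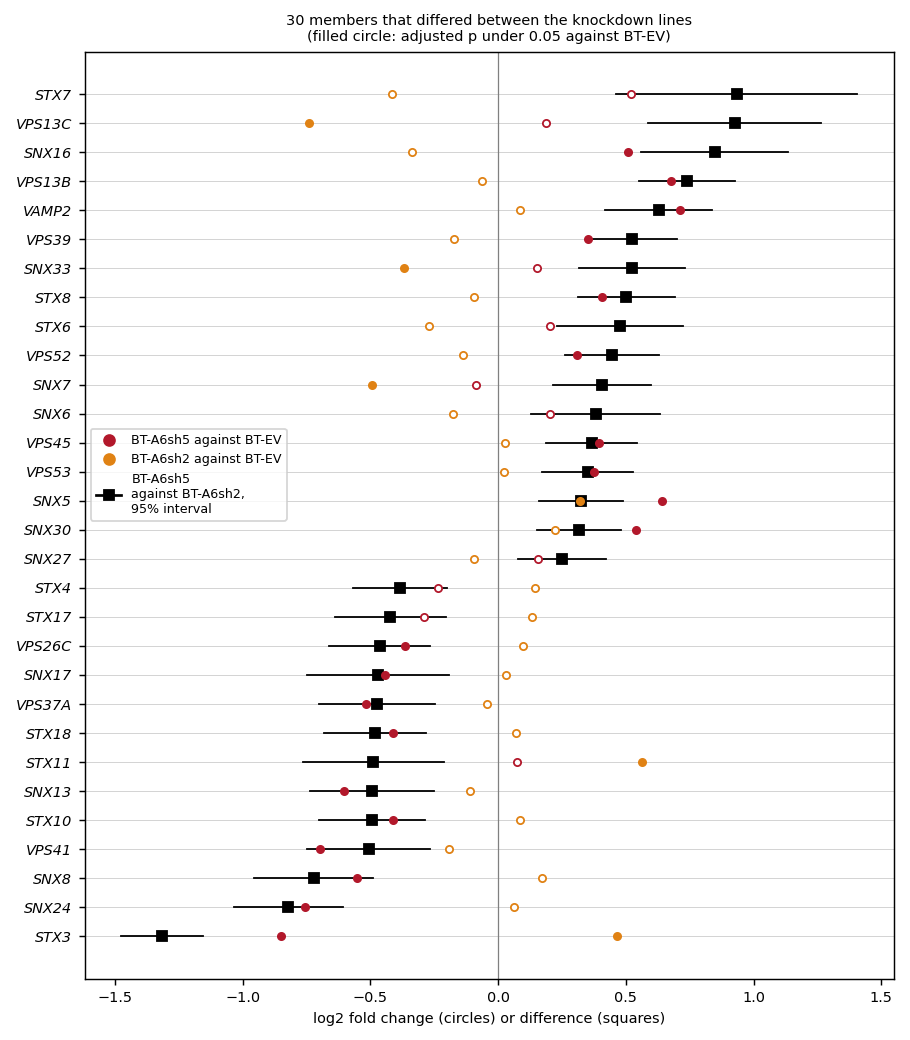
The 30 members called between the knockdown lines. Squares give the log2 difference of BT-A6sh5 over BT-A6sh2 with its 95% interval, and circles each line's log2 fold change against BT-EV (red BT-A6sh5, orange BT-A6sh2, filled at adjusted p under 0.05). STX3 lies at -1.32 and STX7 at 0.93, at the 2 ends.

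Other genes of the same steps were measured with the members. The 8 lists of such genes hold 194, of which 131 were measured and the rest not analysed here. Of the 131, 11 were higher and 23 lower in BT-A6sh5, and 6 were higher and 20 lower in BT-A6sh2, with medians of -0.08 and -0.02. In BT-A6sh5 that is 8.40% and 17.6%, near the 8.12% and 17.2% of named genes above the median. In BT-A6sh2 it is 4.58% higher and 15.3% lower, against 5.49% and 6.26% of those genes, a description of lists that were chosen with results known. Of the 12 other SNAREs and disassembly factors, none was higher and 4 were lower in BT-A6sh5, and none was called in BT-A6sh2. YKT6, a prenylated SNARE, fell by 0.70 in BT-A6sh5 (adjusted p = 5.7e-04), and NSF, the ATPase that takes SNARE complexes apart, had 0.39 and -0.31 (adjusted p = 0.066 and 0.13). Of 8 syntaxin-binding proteins, 1 was lower in BT-A6sh5 and 2 in BT-A6sh2. STXBP6 fell in both lines, by 0.99 for BT-A6sh5 and by 0.42 for BT-A6sh2 (adjusted p = 4.6e-05 and 0.028), and STXBP5, or tomosyn, fell by 0.49 in BT-A6sh2 (adjusted p = 0.040).

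Genes that load, switch or read Rabs were measured, whereas nearly all Rabs were not analysed here. Of the 4 measured genes of Rab prenylation and extraction, 2 were lower in BT-A6sh5: CHML, an escort protein for Rab prenylation, by 0.94 and GDI2, which withdraws Rabs from membranes, by 0.49 (adjusted p = 2.0e-04 and 9.1e-03). GDI2 also fell by 0.38 in BT-A6sh2 (adjusted p = 0.046). Of 30 Rab exchange factors, 6 were higher and 3 lower in BT-A6sh5 and 2 higher and 6 lower in BT-A6sh2. Their share of higher calls in BT-A6sh5 and of lower calls in BT-A6sh2 lay above that of the named genes, and their share of lower calls in BT-A6sh5 below it. DENND1B was higher by 0.49 for BT-A6sh5 but fell by 0.83 for BT-A6sh2 (adjusted p = 9.6e-03 and 1.8e-03), and DENND2C fell by 1.10 and by 0.54 (adjusted p = 9.0e-05 and 0.023). Only 10 of the 37 listed Rab GTPase-activating proteins were measured. Of the 10, 1 was higher and 2 lower in BT-A6sh5. In BT-A6sh2 4 were lower, or 40% of few genes, against 6.26% of the named genes above the median. EVI5 fell by 0.42 there (adjusted p = 0.036). SGSM2 rose by 0.76 in BT-A6sh5 (adjusted p = 2.7e-03). Of 35 Rab effectors, 1 was higher and 5 lower in BT-A6sh5 and 1 higher and 2 lower in BT-A6sh2, with RUFY1 and MICALL2 lower by 0.88 and 0.60 for BT-A6sh5 (adjusted p = 4.0e-04 and 2.1e-03).

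Of 16 other ESCRT genes, 2 were higher and 1 lower in BT-A6sh5 and 2 higher and 2 lower in BT-A6sh2. CHMP5 was higher by 0.52 for BT-A6sh5 (adjusted p = 3.8e-03), CHMP1A by 0.50 for BT-A6sh2 (adjusted p = 0.021). Of 16 genes of the WASH and commander complexes, which work with retromer and retriever, 1 was higher and 5 lower in BT-A6sh5 and 1 higher and 3 lower in BT-A6sh2. WASHC5 was higher by 0.60 for BT-A6sh5 but fell by 0.40 for BT-A6sh2 (adjusted p = 1.4e-03 and 0.029). COMMD7 went the opposite way, at -0.31 for BT-A6sh5 (adjusted p = 0.029) but 0.37 for BT-A6sh2 (adjusted p = 0.021).

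Promoters of 63 of the 81 members were in the RefSeq table. The E-box CACGTG, searched on both strands (the letters are a palindrome), was in the promoter of 11 members, or 17.5%. It was in 8.79% of all 27195 genes, counting any annotated start. Those genes were not filtered by level, whereas only 5 of the 81 members averaged at or below the median. The 2 shares are therefore not like for like. Among other named genes above the median, 1002 had an E-box and 7180 had none. Of the 11 members with an E-box, 7 were lower and none higher in BT-A6sh5, and none was called in BT-A6sh2. Of the 52 members without an E-box, 9 were lower and 6 higher in BT-A6sh5. The split was not seen outside the members: among other named genes above the median, 18.6% of 1002 with an E-box and 18.1% of 7180 without were lower in BT-A6sh5. The E-boxes of the 7 members lower in BT-A6sh5 are shown with 12 bases on each side, the E-box in capitals, 5′ to 3′ on the gene's strand (GRCh38.p14).
SNX8, chr7:2314425-2314454, minus strand: gcgggaggaagtCACGTGggagcgcgggct
SNX8, chr7:2314621-2314650, minus strand: aggctccgtgtcCACGTGgacggggagggg
STX18, chr4:4462106-4462135, minus strand: acagtggagaccCACGTGtcatatcagctt
STX18, chr4:4542416-4542445, minus strand: agggtcaccgtcCACGTGcctctatcctgc
STX2, chr12:130839399-130839428, minus strand: agggacaaacagCACGTGtagcggaactgc
VPS11, chr11:119067750-119067779, plus strand: gaagctgccgacCACGTGattcgctggctc
VPS11, chr11:119067772-119067801, plus strand: gctggctcagctCACGTGacaaagctcccg
VPS26C, chr21:37267398-37267427, minus strand: ccgctgcgaggtCACGTGagccactgccgg
VPS36, chr13:52450302-52450331, minus strand: gccggtcggtagCACGTGgcgtggggcgct
VPS8, chr3:184812171-184812200, plus strand: agtgggtgcggtCACGTGggccggcggtcc
Those of the 4 members not called against BT-EV are as follows.
STX4, chr16:31033284-31033313, plus strand: gaccgggctggtCACGTGacgcggtggggg
STX6, chr1:181022998-181023027, minus strand: atatgccctggtCACGTGagcggggtgcgg
VPS37B, chr12:122896146-122896175, minus strand: cagggctggcgtCACGTGtcccccccgcgg
VPS50, chr7:93232351-93232380, plus strand: ggtcggctcctcCACGTGaccacccactat
Other motifs searched on both strands were GGGCGG, in 79.4% of members with a promoter against 48.4% of all genes, TGACTCA, in none against 6.01%, TATAAA, in 3.17% against 14.0%, and CCGGAAGT, in 9.52% against 4.96%. TCACGTGA, which contains the E-box, was in 6.35% of members and 1.18% of all genes, and CGCATGCG in 3.17% and 2.46%. CCAAT was in 36.5% and 39.7%, and TGACGTCA in 4.76% and 2.25%. The motifs were chosen after the calls were known, and matches are given as letters, not as sites. Neither base composition nor level was matched between the members and all genes.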

How the data were processed

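Total RNA of BT-A6sh5, BT-A6sh2 and BT-EV cells was measured on Affymetrix arrays of the Human Gene ST type, 4 per line. The deposited values are log2 expression levels that the authors made with Expression Console and robust multi-array averaging. The submitters' processing notes name affy, RMA and limma without versions. For genome build and probe set version, nothing was given in the sources used here. Background-corrected intensities were not analysed here, so scanner background and saturation are unknown. Precision is limited by the number of arrays.

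The deposited log2 values of all 53617 transcript clusters were fitted without further scaling or filtering, in 1 model of 3 line means over the 12 arrays, with lmFit and eBayes (limma 3.58.1, R 4.3.3; 9 residual and 2.68 prior degrees of freedom). The spread is pooled over the lines. P-values were two-sided and Benjamini-Hochberg adjusted within each comparison over all transcript clusters, with a threshold of 0.05. The fit was run on simulated data with the same spread in every line, which cannot show how it behaves when lines differ in spread, as these did. Gene names came from GEO's platform annotation, and all 81 member symbols matched RefSeq. Transcript clusters with several gene symbols were not named. Where a gene had several transcript clusters, the one of highest mean over the 12 arrays was used. That rule bore on VAMP7, VPS37B, VPS51 and VPS52. For VPS37B, the kept transcript cluster was not called in BT-A6sh5 against BT-A6sh2 (0.20, adjusted p = 0.35). The other one was called there, at -0.46 (adjusted p = 8.6e-03).

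The members and all lists were chosen with earlier results of these data known. Named in the text were, in each comparison, the 10 largest called rises and the 10 largest called falls among members whose lines did not overlap, members past 2-fold, the member of highest BT-EV level in each role list, members called in both knockdown lines, and a fixed set (VPS35, SNX1, STX4, STX6, VAMP3 and VAMP8 were measured), with up to 2 called genes of each pathway list. VPS26A, VPS26B, VPS29, VPS33A, VPS11, VPS36, VPS26C, VPS37B, VPS50, VPS51, VPS54, SNX18 and STX19 were named besides, after their values were seen.

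Replicate numbers did not pair the arrays: same-numbered arrays had correlations of -0.08 to 0.05 in their deviations from the line means, and 4 of 12 arrays matched their own number best. No 2 arrays held identical values. Alternatives were each single array left out, the 2 lines of a comparison alone, array weights, a trended robust prior, another scaling or filter, another choice among transcript clusters, and a replicate block. Added after seeing the data were the omission of BT-A6sh2 replicates 1 and 3 together, the hybridization control level as a covariate, and 20 or 80 nearest genes in place of 40. Tables and plots were made in Python 3.11.15 with pandas 2.3.3 and matplotlib 3.10.9.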

Additional observations from a re-analysis of the deposited data

Results flagged for a closer look

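In 6 of 135 sets of 4 arrays (45 named members in 3 lines), 1 array lay apart from the other 3 by Dixon's criterion, where chance gives about 1 in 20. RAB6D was lowest in BT-A6sh5 replicate 4 (2.23, the others 2.49 to 2.53). VPS35L was lowest in BT-A6sh5 replicate 3 (8.93, the others 9.08 to 9.10). VPS25 was highest in BT-A6sh2 replicate 1 (10.84, the others 10.49 to 10.51) and lowest in BT-EV replicate 3 (10.43, the others 10.54 to 10.55). SNX3 was lowest in BT-EV replicate 3 (10.40, the others 10.47 to 10.48), and STX18 was highest in BT-EV replicate 1 (9.12, the others 8.98 to 9.00). Without BT-EV replicate 1, the BT-A6sh5 call of STX18 had an adjusted p of 0.046 in limma's fit.

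The fold changes of the knockdown lines differed from each other for 26 members named by the rule, tested as BT-A6sh5 against BT-A6sh2 in the fit of all transcript clusters. Those lower in BT-A6sh5 were the plasma membrane syntaxins STX3 (-1.32), STX11 (-0.49) and STX4 (-0.38), with STX10 (-0.49) and STX18 (-0.48). The sorting nexins among them were SNX24 (-0.82), SNX8 (-0.72), SNX13 (-0.49) and SNX17 (-0.47), and the VPS genes VPS41 (-0.51) and VPS37A (-0.47). Those higher in BT-A6sh5 were the endosomal syntaxins STX7 (0.93), STX8 (0.50) and STX6 (0.48), and VAMP2 (0.63). The sorting nexins were SNX16 (0.85), SNX33 (0.52), SNX7 (0.41), SNX5 (0.32) and SNX30 (0.32). The VPS genes were VPS13C (0.93), VPS13B (0.74), VPS39 (0.52), VPS52 (0.45), VPS45 (0.37) and VPS53 (0.35). The second transcript cluster of VPS52 gave 0.14 and was not called (adjusted p = 0.40). VPS26C, named besides, differed by -0.46 (adjusted p = 4.0e-03). For the 26, adjusted p ran from 2.5e-07 for STX3 to 0.023 for SNX17. The SNX17 call was lost without BT-A6sh5 replicate 3 (adjusted p = 0.065), and the STX11 call without BT-A6sh5 replicate 1 (adjusted p = 0.051).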

How the results depend on the processing

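No named member reversed a call under any alternative run. Over all alternatives, 2869 named values kept their side of the threshold, 170 lost and 63 gained a call. In BT-A6sh5 against BT-EV, counts moved by over 1.5 times only with the hybridization control level as a covariate, to 1 higher and 1 lower, and single omissions gave 8 to 14 higher and 13 to 22 lower. In BT-A6sh2 against BT-EV, the 5 higher became 2 with these 2 lines alone, 3 with repeated quantile normalization, 3 with array weights, 2 without BT-A6sh2 replicates 1 and 3, and 0 with the covariate, and ranged from 1 to 7 over single omissions. The 6 lower became 1 with these 2 lines alone and 0 with the covariate, and ranged from 2 to 7 over single omissions. With quantile normalization that comparison had 3 higher and 6 lower. In BT-A6sh5 against BT-A6sh2, the 2 lines alone gave 9 higher and 8 lower, and single omissions gave 15 to 17 higher and 12 to 16 lower. With replicate number as a block, although the numbers do not pair the arrays, there were 10 higher and 13 lower in BT-A6sh5, 2 higher and 3 lower in BT-A6sh2, and 16 higher and 13 lower between the knockdown lines. The cause of these moves was not tested. With 20 or 80 nearest genes, r in BT-A6sh5 was 0.54 or 0.62, and neighbours matched the direction of 10 of 11 and 16 of 18 called members with 20, and of 11 and 18 with 80.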
